A study of Mus musculus with 12 samples.

Results

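Molecular motors of the kinesin, dynein and myosin families were examined in single mouse ovarian follicles. The Dctn subunit genes of dynactin and the kinesin scaffold genes Spag9, Mapk8ip1 and Mapk8ip3 were included. The genes were chosen by symbol with earlier results of these data known, and 73 of 11806 listed in the authors' deposited table qualified. The series holds 6 vitrified and 6 fresh follicles, each sequenced as a library of its own. Every follicle was taken from outbred CD-1 mice aged 16 days, placed in 0.5% alginate and, vitrified and fresh alike, cultured for 8 days in recombinant follicle-stimulating hormone at 10 mIU/mL. Vitrification is cryopreservation by cooling into a glass-like solid, and the comparison asks how the transcripts of such follicles differ from those of fresh ones.

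Kinesins and cytoplasmic dynein walk along microtubules, most kinesins toward the plus end and dynein toward the minus end, while myosins walk along actin filaments. Kinesins carry vesicles and organelles and build the mitotic spindle, dynein needs its partner complex dynactin to move cargo over long distances, and unconventional myosins act at membranes, filopodia and endosomes. In a growing follicle the granulosa cells divide and extend thin projections to the oocyte, which itself depends on spindle motors at meiosis.

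The sequences of Dynlt1b and its copies come first because they limit what the values of this light chain can say. Dynlt1, also called Tctex-1, attaches cargo to dynein, and in the mouse it is present as Dynlt1a, Dynlt1b, Dynlt1c and Dynlt1f on chromosome 17. Their coding sequences in mouse GENCODE release 21 (assembly GRCm38, or mm10) hold 339 bases each without the stop codon. Dynlt1b lies on the plus strand of chromosome 17 from 6430112 to 6436296 and Dynlt1c on the plus strand from 6601671 to 6609774. Dynlt1a lies on the minus strand from 6306340 to 6317500 and Dynlt1f on the minus strand from 6646602 to 6655900. Dynlt1b differs from Dynlt1c by the substitution A21C alone, counted from 1 at the first base of the start codon, and the capital marks it in the first 120 coding bases.
Dynlt1b: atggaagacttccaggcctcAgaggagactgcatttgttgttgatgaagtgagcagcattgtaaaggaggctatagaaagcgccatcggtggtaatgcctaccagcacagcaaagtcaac
Dynlt1c: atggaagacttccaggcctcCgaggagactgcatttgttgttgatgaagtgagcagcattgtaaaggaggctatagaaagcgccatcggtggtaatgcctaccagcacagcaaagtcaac
The coding sequences of Dynlt1a and Dynlt1f differ from that of Dynlt1c at 0 bases, and so does the processed pseudogene Dynlt1-ps1 on chromosome 6, which is not among the motor genes. Transcripts were then compared in windows of 50 bases taken every 25 bases. Of these windows 82.8% of Dynlt1b, 88.6% of Dynlt1c, 67.0% of Dynlt1a and 89.3% of Dynlt1f occur in another of these 5 genes. How reads were shared among the copies is not stated in the sources, so the value of each copy is uncertain. No other motor gene had at least 50% of its windows in other genes.

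RefSeq promoter sequence (GRCm38.p6) was matched for 55 of the 73 motor genes, Dynlt1c and Dynlt1f among them. A stretch of 142 bases upstream of both genes is shown to set these copies side by side, chr17:6601529-6601670 on the plus strand for Dynlt1c and chr17:6655940-6656081 on the minus strand for Dynlt1f. They were 97.9% identical, with the 3 substitutions A26C, C52T and C90G from Dynlt1c to Dynlt1f, in capitals and counted from the first base shown.
Dynlt1c: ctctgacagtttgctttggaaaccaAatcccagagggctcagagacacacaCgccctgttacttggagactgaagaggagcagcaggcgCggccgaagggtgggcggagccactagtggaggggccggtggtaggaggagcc
Dynlt1f: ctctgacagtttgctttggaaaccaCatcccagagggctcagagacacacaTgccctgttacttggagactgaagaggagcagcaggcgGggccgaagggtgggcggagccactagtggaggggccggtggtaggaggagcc

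The deposited table holds no level for single follicles, so no spread between replicates can be shown, and the totals given here are pooled over all 12 libraries. Totals of the tested motor genes ran from 71.1 to 3231, with a median of 325 against 307 for all tested genes in the authors' deposited table. All fold changes are vitrified over fresh on the log2 scale, and the 95% interval in parentheses was worked out from fold change and p under a normal, two-sided test. A gene was called where the authors' step-up adjusted p over all genes was under 0.05. Which follicles came from the same mouse is not in the labels, so p-values treat them as independent and measure the spread between these follicles only. In whole follicles, fewer cells of a type and less RNA per cell cannot be told apart.

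Granulosa markers were abundant, with 9 of 10 listed genes found and a summed total of 2166192 in the authors' deposited table. There 8 of 10 oocyte markers summed to 1121 and 7 of 7 theca markers to 464709. Hsd3b1 alone held 435485 of the theca sum, at a log2 fold change of -0.11 (-0.47 to 0.25) by the authors' deposited table. Higher values in vitrified follicles were found for 6 of 6 tested oocyte markers and 5 of 7 theca markers, and the authors' deposited table gives median log2 fold changes of 0.81 and 1.19. Of these 0 oocyte and 0 theca markers were called by the authors' test, and 0 and 3 had an unadjusted p under 0.05. The oocyte marker Dazl, whose total of 44.3 was too low for an adjusted p, had a log2 fold change of -2.14 (-3.56 to -0.73) by the authors' deposited table. Granulosa markers had a median log2 fold change of -0.02, with 0 called and 2 at an unadjusted p under 0.05 by the authors' test. Endothelial markers were found for 3 of 4 genes and immune markers for 1 of 3, summing to 2044 and 291 in the authors' deposited table. All had lower values in vitrified follicles, with log2 fold changes of -1.66 for Cdh5, -1.42 for Kdr, -1.25 for Pecam1 and, among immune markers, -1.05 for Lyz2, by the authors' deposited table. Of the 2 endothelial and 1 immune markers tested 0 and 0 were called by the authors' test, and 0 and 1 had an unadjusted p under 0.05. The part of cell makeup in the motor results was not tested.

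Across the motor genes the scaffold gene Spag9 fell and the dynein light chain gene Dynlt1b rose in vitrified follicles, and no other motor gene was called. Of the 73 genes 70 had an adjusted p, and Kif1c, Kif5c and Kif14 had none, the authors' deposited table giving them totals of 54.7, 36.9 and 48.1. The calls made up 2.86% of those tested, where 0.529% of all tested genes were called. By direction, 1 was higher, with 27 or 0.246% of all tested genes called higher, and 1 was lower, where 31 or 0.283% lay below 0 and were called. The call of Spag9, a scaffold gene included by name, was known from earlier results of these data. The share called therefore cannot be weighed against that of all genes. Without the 3 scaffold genes the calls came to 1, Dynlt1b, whose sequence is largely shared with its copies. At an unadjusted p under 0.05 there were 12 motor genes, or 17.1%, against 7.02% of all tested genes. Of these 4 were higher and 8 lower in vitrified follicles, where 3.24% of all tested genes were higher and 3.79% lower at that p. Dynlt1a, Dynlt1b and Dynlt1c were among the higher ones, and without the 4 Dynlt1 copies the count was 9 of 66 genes, or 13.6%, with 1 higher and 8 lower.

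The motor genes as a whole lay close to all tested genes. Their median log2 fold change was -0.01 (quartiles -0.28 and 0.23), against -0.02 (quartiles -0.22 and 0.17) for all tested genes in the authors' deposited table, and its sign turned, to 0.01, when centred on the latter. Values were lower in vitrified follicles for 36 of 70, or 51.4%, against 53.2% of all tested genes. The interval lay wholly within 2-fold for 47, or 67.1%, against 69.1% of all tested genes, and for the other motor genes a 2-fold difference was within the interval.

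**Figure D1:**
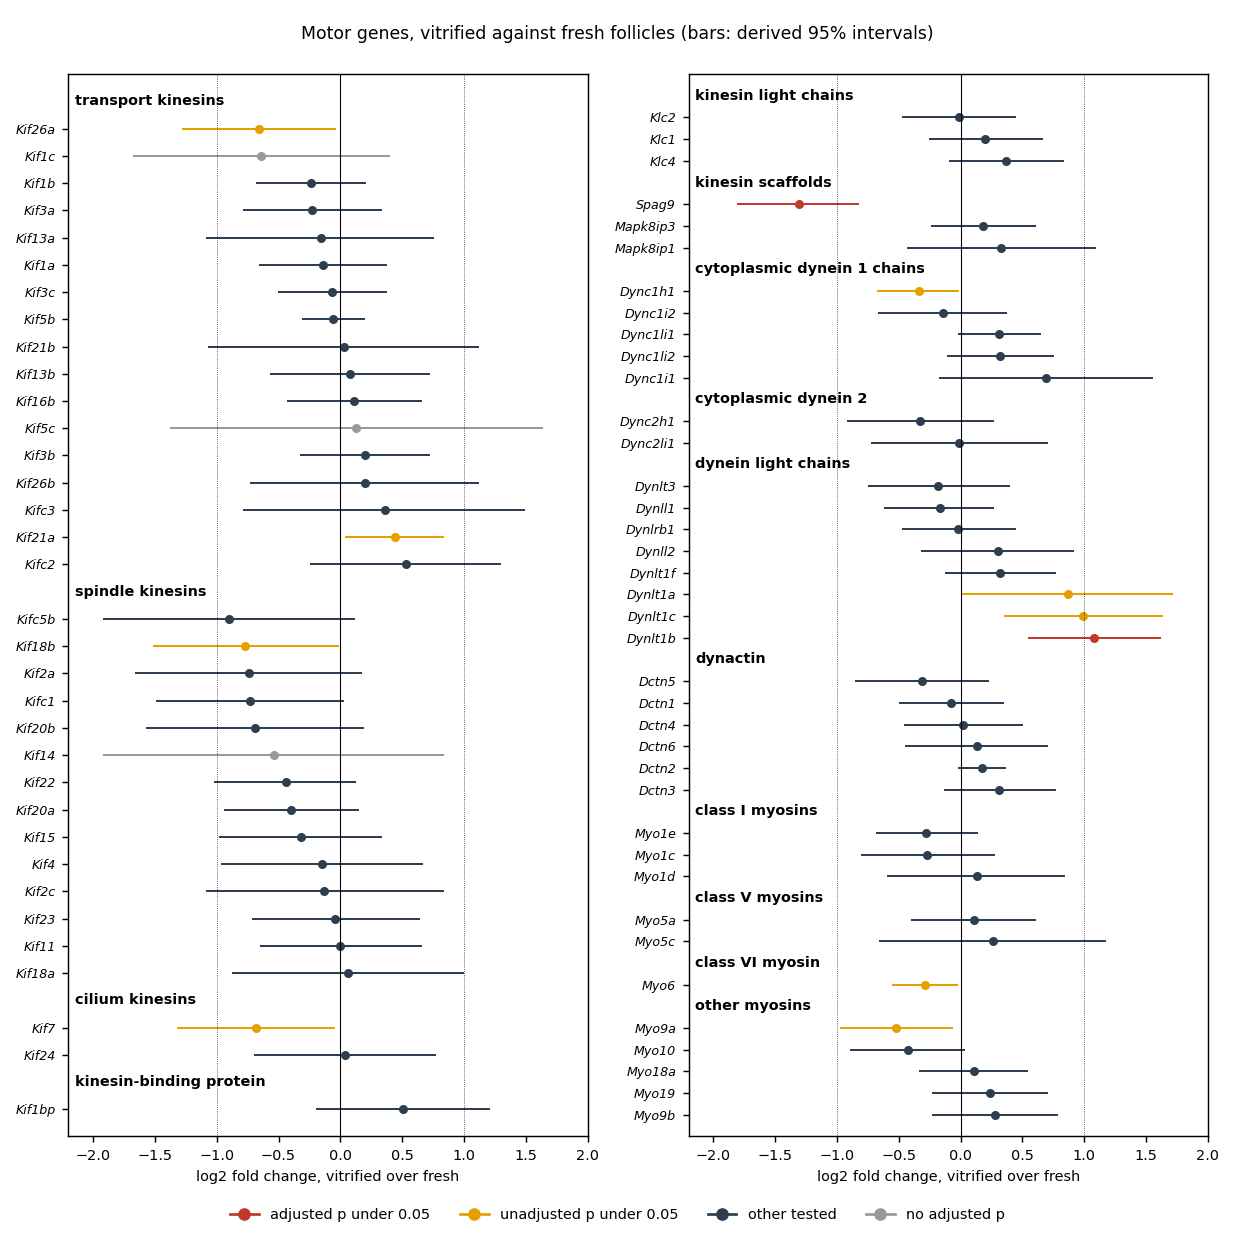
Log2 fold change, vitrified over fresh, of 72 of the 73 motor genes by role. Points are values of the authors' deposited table, bars the derived 95% intervals, and dotted lines 2-fold; Spag9 at -1.31 and Dynlt1b at 1.08 are the called genes, and 11 of 13 tested spindle kinesins lie below 0.

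**Figure D2:**
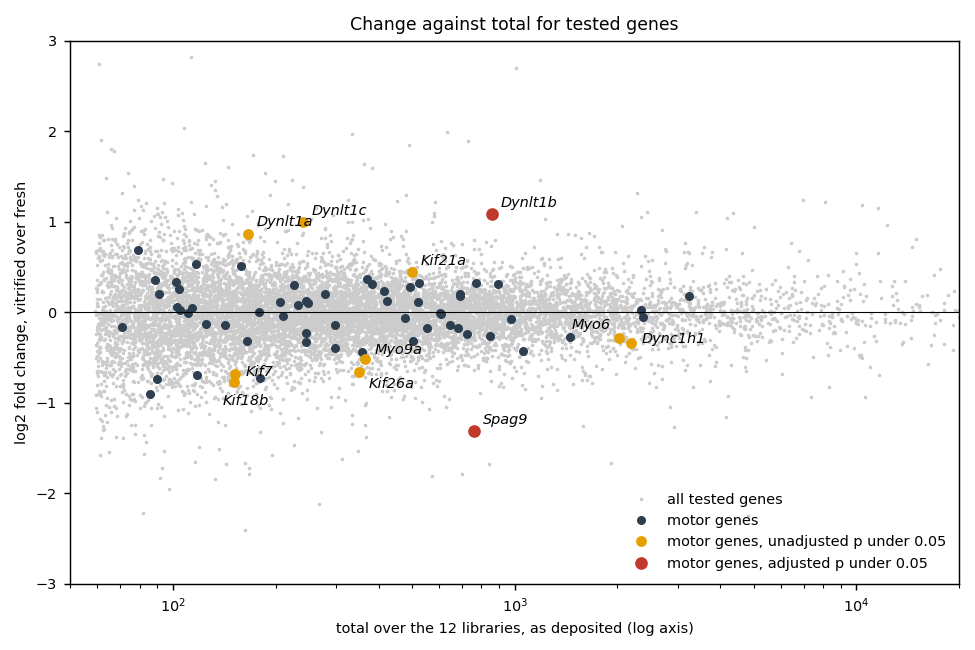
Log2 fold change, vitrified over fresh, against the pooled total (log axis) for all tested genes (grey) and 69 motor genes (larger points), from the authors' deposited table; 103 tested genes lie outside the axes. Spag9 and Dynlt1b, with totals of 760 and 858, are the 2 tested motor genes beyond 2-fold.

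Kinesin scaffolds link motors to cargo and to the stress-activated kinases. Spag9, also known as JIP4, binds kinesin-1 light chains and dynactin and lies on the plus strand of chromosome 11 from 93996091 to 94126085 in GRCm38. On a total of 760 it fell 2.48-fold in vitrified follicles, a log2 fold change of -1.31 (-1.80 to -0.83) with adjusted p 1.92e-04 by the authors' deposited table. Its p ranked 6 among the 10963 genes tested. None of its sequence windows occurred in another gene (0 of 1364). Within 500 kb on either side 0 of 11 flanking genes were called by the authors' test, and 0 had an unadjusted p under 0.05. The related scaffold genes had log2 fold changes of 0.18 (-0.23 to 0.60) for Mapk8ip3 (JIP3) and 0.33 (-0.43 to 1.09) for Mapk8ip1 (JIP1), by the authors' deposited table. Both intervals lay wholly above that of Spag9, though a difference between the genes was not tested. The call of Spag9 was lost where a t distribution of 10 degrees of freedom, the number that 12 follicles in 2 groups leave, replaced the normal in a readjustment over all genes (adjusted p 0.506).

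The kinases and small GTPases listed with these scaffolds, Max, Mcoln1, Pip4p1, Rilpl1 and Rilpl2 counted with them, gave 0 calls among 18 tested genes. By the authors' test 2 higher genes and 1 lower gene had an unadjusted p under 0.05, or 16.7% against 7.02% of all tested genes. Rab10, a GTPase of vesicle traffic, was given a log2 fold change of 0.63 (0.19 to 1.06) with adjusted p 0.297 by the authors' deposited table. Map2k7, which activates the kinase JNK, was at 0.37 (0.05 to 0.70) and Map3k3, further up the cascade, at -0.79 (-1.57 to -0.02) in log2 fold change, with adjusted p 0.572 and 0.694 by the authors' deposited table. None of these passed the threshold. The JNK gene Mapk9, with the list's highest total of 2523, was at 0.01 (-0.41 to 0.44) in log2 fold change, per the authors' deposited table.

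Kinesin-1 consists of heavy chains that walk and light chains that bind cargo and scaffolds. The heavy chain gene Kif5b had the highest total of the kinesins, 2371, and the authors' deposited table gives it a log2 fold change of -0.06 (-0.30 to 0.19). Its paralog Kif5c had a total of 36.9 and was at 0.13 (-1.37 to 1.63) in log2 fold change, per the authors' deposited table. Light chain genes were at 0.37 (-0.09 to 0.83) for Klc4, 0.20 (-0.25 to 0.66) for Klc1 and -0.01 (-0.47 to 0.44) for Klc2 in log2 fold change, by the authors' deposited table. The intervals of Kif5b and of all 3 light chain genes lay within 2-fold, unlike that of Kif5c.

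Genes grouped as transport kinesins, Kif5b, Kif26a and Kif26b included, lay on both sides of 0, with 8 higher and 7 lower of 15 tested. Their median log2 fold change was 0.03, with 0 called. At an unadjusted p under 0.05 by the authors' test there were 2, or 13.3% against 7.02% of all tested genes. Kif21a, which restrains microtubule growth, was at 0.44 (0.05 to 0.83) in log2 fold change with adjusted p 0.585, per the authors' deposited table. Kif26a, an atypical kinesin, was at -0.66 (-1.27 to -0.04) in log2 fold change with adjusted p 0.652, per the authors' deposited table. Neither passed the threshold, and they lay on opposite sides of 0. Subunits of kinesin-2, a motor of vesicles and cilia, were at -0.23 for Kif3a, 0.20 for Kif3b and -0.07 for Kif3c in log2 fold change, by the authors' deposited table. Kinesin-3 genes, which carry vesicles and endosomes, were at -0.14 for Kif1a, -0.24 for Kif1b, -0.16 for Kif13a, 0.08 for Kif13b and 0.11 for Kif16b in log2 fold change, by the authors' deposited table. Their signs were mixed and none was called. A further kinesin-3 gene, Kif1c, had no adjusted p and was at -0.64 (-1.67 to 0.39) in log2 fold change, per the authors' deposited table. Kif21b was at 0.03, Kif26b at 0.20, Kifc2 at 0.53 and Kifc3 at 0.36 in log2 fold change, by the authors' deposited table. Kif1bp, which binds and restrains several kinesins, was at 0.51 (-0.19 to 1.20) in log2 fold change, per the authors' deposited table. Listed kinesin partners and cargo adaptors had a median log2 fold change of 0.05 over 12 tested genes, 0 called and 0 at an unadjusted p under 0.05 by the authors' test. The lysosomal GTPase gene Arl8b, with their highest total of 2070, was at -0.14 (-0.37 to 0.10) in log2 fold change, per the authors' deposited table. Cenpe was counted in this list and not among the spindle kinesins. It was at -0.08 (-0.69 to 0.54) in log2 fold change, per the authors' deposited table.

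Kinesins of the spindle and of cytokinesis mostly had lower values in vitrified follicles, though none was called. Of 13 tested genes 11 were lower, or 84.6% against 53.2% of all tested genes, with a median log2 fold change of -0.40, 0 called and 1 at an unadjusted p under 0.05 by the authors' test. That gene was Kif18b, which acts on astral microtubules, at -0.77 (-1.51 to -0.02) in log2 fold change with adjusted p 0.691, per the authors' deposited table. Kif22, which binds chromosomes and had the group's highest total of 358, was at -0.44 (-1.01 to 0.12) in log2 fold change, per the authors' deposited table. The microtubule depolymerase genes Kif2a and Kif2c were at -0.74 (-1.65 to 0.17) and -0.13 (-1.08 to 0.83) in log2 fold change, by the authors' deposited table. Kif20a and Kif20b, which act in cytokinesis, were at -0.40 (-0.93 to 0.14) and -0.69 (-1.56 to 0.18) in log2 fold change, by the authors' deposited table. These intervals all held 0. Kif15, a spindle motor, was at -0.32, and the chromokinesin gene Kif4 at -0.15 in log2 fold change, by the authors' deposited table. Nearest to 0 were Kif11, which slides spindle microtubules apart, at 0.00, Kif23, of the central spindle, at -0.04 and Kif18a, which aligns chromosomes, at 0.06 in log2 fold change, by the authors' deposited table. The cytokinesis kinesin gene Kif14, without an adjusted p, was at -0.54 (-1.91 to 0.83) in log2 fold change, per the authors' deposited table. Totals of the 13 tested genes were low, from 85.9 to 358, with a median derived standard error, in log2 units, of 0.38 against 0.29 for all tested genes, and 6 of 13 intervals lay within 2-fold.

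The minus-end kinesin genes Kifc1 and Kifc5b were at -0.73 (-1.48 to 0.02) and -0.90 (-1.91 to 0.11) in log2 fold change, by the authors' deposited table. They are close copies, with 43.4% of the windows of Kifc1 in Kifc5b and 42.9% of those of Kifc5b in Kifc1, so their values cannot be taken as separate observations. Among kinesins of cilium and centriole, Kif7, a regulator of Hedgehog signalling, was at -0.68 (-1.31 to -0.05) in log2 fold change with adjusted p 0.642, and Kif24 at 0.04 (-0.69 to 0.77), by the authors' deposited table. Exons of Kif7 overlap those of Ticrr, and 13 of the 73 motor genes overlap exons of another gene of the table, whose reads cannot be told apart if counting ignored strand.

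Cytoplasmic dynein 1 is built from a heavy chain with the motor, intermediate and light intermediate chains that hold adaptors, and light chains. The heavy chain gene Dync1h1, with a total of 2188, was at -0.34 (-0.67 to -0.02) in log2 fold change with adjusted p 0.654, per the authors' deposited table. Light intermediate chain genes were at 0.31 (-0.01 to 0.64) for Dync1li1 and 0.32 (-0.10 to 0.75) for Dync1li2 in log2 fold change, by the authors' deposited table. Intermediate chain genes were at 0.69 (-0.17 to 1.55) for Dync1i1 and -0.14 (-0.66 to 0.37) for Dync1i2 in log2 fold change, by the authors' deposited table. None of the 5 was called, and Dync1h1 had the lowest p among them. Dynein 2 genes, which serve transport in cilia, were at -0.33 (-0.91 to 0.26) for Dync2h1 and -0.01 (-0.72 to 0.70) for Dync2li1 in log2 fold change, by the authors' deposited table.

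Among the dynein light chains Dynlt1b rose 2.11-fold in vitrified follicles, on a total of 858, a log2 fold change of 1.08 (0.55 to 1.61) with adjusted p 0.0181 by the authors' deposited table. Dynlt1c, on a total of 240, was at 0.99 (0.36 to 1.63) in log2 fold change with adjusted p 0.198, per the authors' deposited table. Dynlt1a, on a total of 166, was at 0.87 (0.02 to 1.71) in log2 fold change with adjusted p 0.691, per the authors' deposited table. These copies are near-identical in the coding sequences shown above, so their values may share reads and cannot be taken as separate observations. Dynlt1f, on a total of 770, was at 0.32 (-0.12 to 0.76) in log2 fold change, per the authors' deposited table. The pseudogene Dynlt1-ps1, on a total of 464, was at 0.37 (-0.17 to 0.91) in log2 fold change, per the authors' deposited table. None of the other light chain genes was called. Dynll1 was at -0.17 (-0.61 to 0.26), Dynll2 at 0.30 (-0.31 to 0.91), Dynlrb1 at -0.02 (-0.47 to 0.44) and Dynlt3 at -0.18 (-0.74 to 0.39) in log2 fold change, by the authors' deposited table. A difference between these genes and Dynlt1b was not tested. The call of Dynlt1b was lost with Benjamini-Yekutieli adjustment (adjusted p 0.178) and where a t distribution replaced the normal (adjusted p 0.735).

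The Dynlt1 copies lie on chromosome 17 among copies of Tmem181, a membrane protein gene, which were looked up after the values of Dynlt1b were seen. From Tmem181a to Dynlt1f the array spans 399.0 kb, and 7 of its 7 genes in the table had higher values in vitrified follicles, 3 of them called. Of all tested genes 0.529% were called, but the shares cannot be compared, because Dynlt1b led to the array and is 1 of the 3. The copies share sequence, so the 7 genes cannot be taken as separate observations. The number of copies of the array in the genomes of these outbred mice was not analysed here. The pseudogene Tmem181b-ps rose 2.13-fold, a log2 fold change of 1.09 (0.57 to 1.61) with adjusted p 0.0136, per the authors' deposited table. Tmem181c-ps rose 4.1-fold, a log2 fold change of 2.03 (1.17 to 2.90) with adjusted p 0.00314, per the authors' deposited table. Tmem181a was at 0.24 (-0.21 to 0.69) in log2 fold change, by the authors' deposited table. Sequence is shared here too, with 62.5% of the windows of Tmem181b-ps and 70.4% of those of Tmem181c-ps in another gene, and exons of Tmem181a overlap those of Dynlt1a on the opposite strand. Within 500 kb on either side 0 of 11 genes were called by the authors' test and 0 had an unadjusted p under 0.05. Synj2, among these genes on a total of 30.6, had no adjusted p and could not be called. The nearest on each side, Tulp4 and Ezr, were at 0.35 (-0.02 to 0.71) and 0.01 (-0.37 to 0.40) in log2 fold change, by the authors' deposited table.

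**Figure D3:**
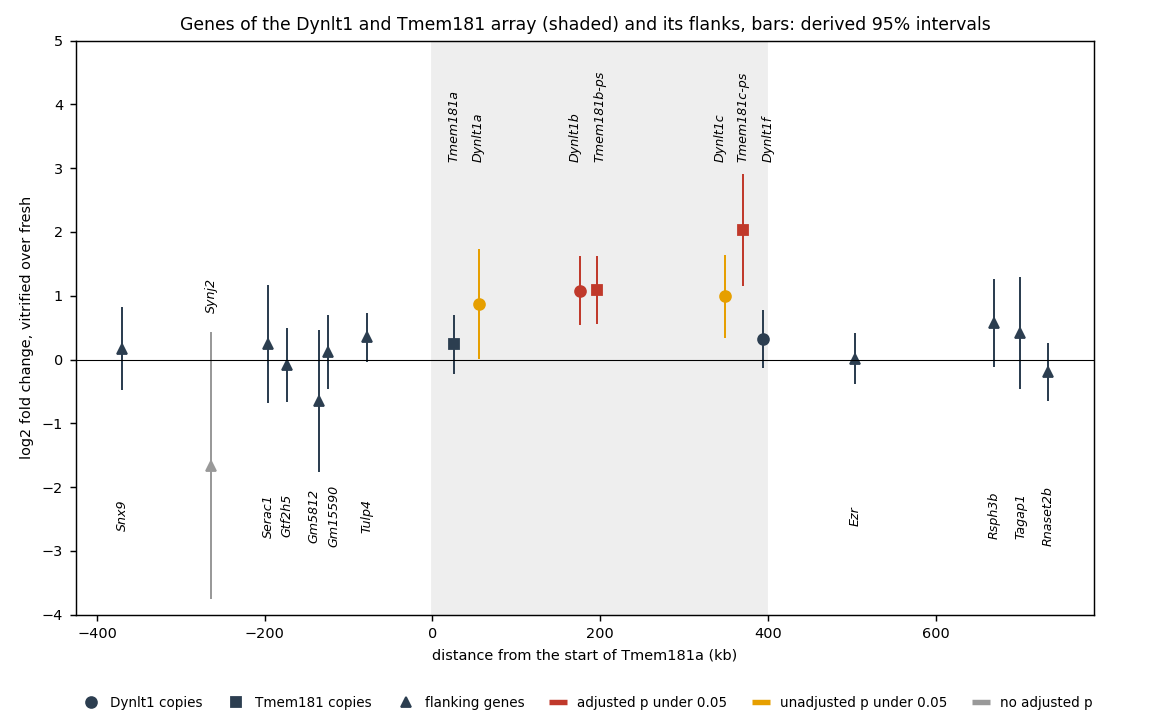
Log2 fold change, vitrified over fresh, of genes in the Dynlt1 and Tmem181 array (shaded) and within 500 kb of it, by distance from the start of Tmem181a in kb. Points are values of the authors' deposited table and bars derived 95% intervals. The 7 genes inside lie from 0.24 to 2.03. Of 11 flanking genes 0 were called, and Synj2 had no adjusted p.

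Dynactin tethers dynein to cargo, and the intervals of all 6 Dctn genes lay within 2-fold, where 69.1% of all tested genes did. The count called was 0, with 0 at an unadjusted p under 0.05 by the authors' test. Dctn2, which encodes dynamitin and had the highest total of the motor genes, 3231, was at 0.17 (-0.01 to 0.36) in log2 fold change, per the authors' deposited table. Dctn1, whose product binds dynein and microtubules, was at -0.08 (-0.49 to 0.34) and Dctn3 at 0.31 (-0.13 to 0.76) in log2 fold change, by the authors' deposited table. The pointed-end genes were at 0.02 for Dctn4, -0.31 for Dctn5 and 0.13 for Dctn6 in log2 fold change, by the authors' deposited table. Adaptors and regulators of dynein and dynactin had a median log2 fold change of -0.03 over 23 tested genes, 0 called and 0 at an unadjusted p under 0.05 by the authors' test. Capzb, which encodes an actin capping subunit and had their highest total of 2116, was at 0.05 (-0.25 to 0.34) in log2 fold change, per the authors' deposited table. Capzb, Capza1, Capza2, Actr1a, Actr1b and Actr10 were counted in this list, so dynactin stands here for the Dctn genes alone.

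Unconventional myosin genes had a median log2 fold change of -0.08, with 6 higher and 6 lower of 12, 0 called and 3 lower at an unadjusted p under 0.05 by the authors' test, or 25% against 3.79% of all tested genes lower at that p. Among these, Myo6, which walks toward the minus end of actin and acts in endocytosis, had the highest total of the myosins, 2018, and was at -0.29 (-0.55 to -0.03) in log2 fold change with adjusted p 0.605, per the authors' deposited table. Myo9a, a class IX myosin and also among them, was at -0.52 (-0.97 to -0.07) in log2 fold change with adjusted p 0.567, per the authors' deposited table. None passed the threshold. The class I genes Myo1c, Myo1d and Myo1e, of a class that links membranes to actin, were at -0.27 (-0.80 to 0.27), 0.13 (-0.59 to 0.84) and -0.28 (-0.68 to 0.13) in log2 fold change, by the authors' deposited table. Myo10, which builds filopodia, was at -0.43 (-0.89 to 0.03), and Myo9b at 0.28 (-0.22 to 0.78) in log2 fold change, by the authors' deposited table. The class V cargo myosin genes Myo5a and Myo5c were at 0.11 (-0.39 to 0.60) and 0.26 (-0.65 to 1.17) in log2 fold change, by the authors' deposited table. Both class V intervals held 0. The Golgi-linked Myo18a was at 0.11 and the mitochondrial Myo19 at 0.24 in log2 fold change, by the authors' deposited table.

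Among light chains and cargo adaptors of unconventional myosins Calm2 rose 2.06-fold in vitrified follicles, a log2 fold change of 1.04 (0.71 to 1.38) with adjusted p 2.67e-06, per the authors' deposited table. Calmodulin is a light chain of many myosins and a calcium sensor of many other enzymes. Calm3, which also encodes calmodulin, was not called and was at -0.28 (-0.65 to 0.08) in log2 fold change, per the authors' deposited table. Over all 5 partner lists 1 of 79 tested genes was called, or 1.27% against 0.529% of all tested genes, and 5, or 6.33% against 7.02%, had an unadjusted p under 0.05. The call of Calm2 was lost where a t distribution replaced the normal. Conventional myosin II and its regulators had 11 of 15 genes lower, or 73.3% against 53.2% of all tested genes, a median log2 fold change of -0.14, 0 called and 1 at an unadjusted p under 0.05 by the authors' test. That gene was the light chain gene Myl12b, at 0.41 (0.02 to 0.79) in log2 fold change with adjusted p 0.661, per the authors' deposited table. Myl12a, with their highest total of 3104, was at -0.23 (-0.59 to 0.13) in log2 fold change, per the authors' deposited table.

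Levels were compared between the 70 tested motor genes as pooled totals per kilobase of the longest annotated coding transcript. The untested Kif1c, Kif5c and Kif14 had levels of 8.19, 5.38 and 5.37 per kb, from the authors' deposited table. Dctn2 was highest at 1811 per kb, followed by Dynlt1b at 1113, Dynlt1f at 998 and Dynlrb1 at 774 per kb, from the authors' deposited table. Dynlt1a and Dynlt1c, with longer annotated coding transcripts, had levels of 49.9 and 92.7 per kb in the authors' deposited table. Dynlt1b and Dynlt1f both had a longest coding transcript of 771 bases, but their annotated transcripts gave 29 and 169 sequence windows. The level of Dynlt1f may therefore be too high, and the order among copies that share reads is uncertain. By role the median level was 361 per kb for dynactin, 295 for dynein light chains and 246 for class I myosins, against 77.8 for all tested motor genes, from the authors' deposited table. Kif5b, at 393 per kb, was the highest of the 15 tested transport kinesins, with a median level of 49.4 and a lowest among the tested, for Kif26b, of 6.61 per kb, from the authors' deposited table. The 13 tested spindle kinesins had levels from 17 to 169 per kb with a median of 37, from the authors' deposited table. Whether neighbours in this order differ beyond the spread between follicles cannot be judged from pooled totals.

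**Figure D4:**
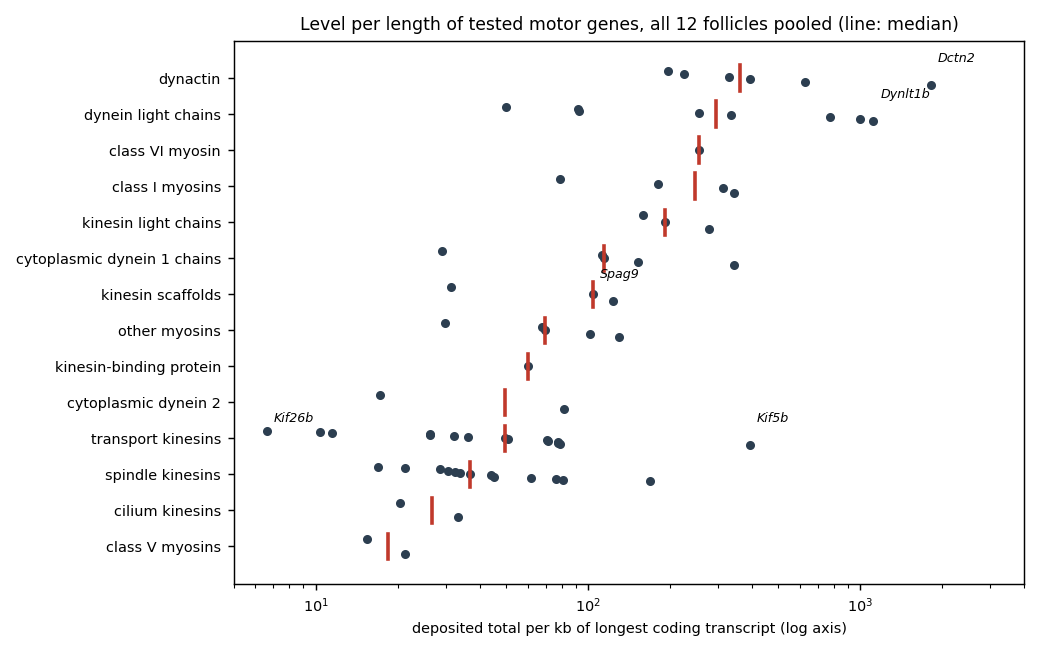
Pooled total per kb of the longest annotated coding transcript (log axis) for the 70 tested motor genes by role, from the authors' deposited table, with lines at the medians. Dynactin and dynein light chains have the highest medians, and Kif5b at 393 per kb is the highest transport kinesin.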

How the data were processed

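RNA from the lysate of each follicle was purified on beads and made into Smart-seq libraries, per the labels' protocols. Bowtie2, HISAT2, Partek, DESeq2 and the build mm10 are named in the submitters' processing notes, while the annotation, the counting rule and its use of strand are not stated there. The authors deposited, per the file headers, a total count, a p-value, an adjusted p-value, a signed fold change score and a log2 fold change. Only 0.237% of totals were whole within 0.001, so none was used as a raw count. An adjusted p was missing for 843 genes, those with totals of 59.44 or less. Recomputed values for the other 10963 differed by at most 0.598%.

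Intervals were derived with scipy 1.17.1 in Python 3.11.15, in steps tested on simulated data. Annotation came from GENCODE, to which all 73 symbols matched. Members with an unadjusted p under 0.05 and, in each role, those of lowest p and highest total were named first; of the partners, those at that p and the highest total of each list. Some genes that this rule would name are not reported here. Calm3, the flanking genes, Dynlt1-ps1 and the Tmem181 genes were named outside this rule, after their values were seen. The members and lists were chosen with earlier results of these data known. Of 105 family symbols listed, 73 were found, and the others were not analysed here.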

Additional observations from a re-analysis of the deposited data

How the results depend on the processing

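The number of called motor genes, 2 in the authors' deposited table, stayed at 2 with no filter on totals, at a total of at least 120 and at an adjusted p under 0.10. It was 1 with Benjamini-Yekutieli adjustment and 1 at an adjusted p under 0.01, Spag9 in both, as both settings are stricter by construction. It was 1 without the 3 scaffold genes, leaving Dynlt1b, and 1 without genes sharing at least 50% of windows, leaving Spag9. When 10 degrees of freedom and a t distribution replaced the normal, it was 0, with 5 motor genes at an unadjusted p under 0.05, and the partner count was 0 in place of 1, with 3. That setting called 0 of all 10963 genes, the lowest adjusted p being 0.0642, with 498 genes at an unadjusted p under 0.05. Under it Spag9, at a log2 fold change of -1.31, had an adjusted p of 0.506, against 1.54e-04 to 0.00189 under its other alternatives. Dynlt1b, whose alternatives were added after its value was seen, had an adjusted p of 0.0129 to 0.0194 with the filters and centring, 0.178 with Benjamini-Yekutieli adjustment and 0.735 with the t distribution. The median log2 fold change of the motor genes ran from -0.05 to 0.01, and 3 genes changed sign on centring. No paired analysis was possible because the table holds no values per follicle, and leaving out single follicles was not run for that reason. The t distribution is also stricter by construction. Low totals limit the spindle kinesins.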
